A study of Mus musculus with 4 samples.

Results

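The genes described here are 7 genes of Schwann cells and myelin, Mbp, Pmp22, Sox10, Erbb3, Mag, Cnp and Foxd3, as markers of the glia of the auditory nerve. They were chosen by name and not by a rule on their values, but earlier results of these data were known. All 7 are among the 23420 genes listed in each of the 4 deposited tables. All 7 also had at least 100 recovered reads over the 12 replicates, the minimum for a test, which 16077 genes reached. The tissue came from mice of postnatal day 1 on a CD1 background, all carrying an Atoh1-GFP transgene whose signal marks hair cells. Explanted cochleae spent a night in culture and then either stayed untreated (control) or received 0.5 mM of the aminoglycoside antibiotic gentamicin for 3 h. By flow cytometry the cells were then divided into a GFP positive sort, called hair cells, and a GFP negative sort, called non-hair cells. This gives 4 groups of 3 replicates: control and gentamicin-treated hair cells, and control and gentamicin-treated non-hair cells. Non-hair cells are by the study's methods a mixture of supporting cells, other epithelial cells and surrounding tissue, and no gate was set for glia. Because all cells of a sort were sequenced together, fewer cells of a type and less RNA per cell cannot be told apart in any value given here.

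Schwann cells arise from the neural crest and wrap the peripheral part of auditory nerve fibres. Sox10 and Foxd3 are transcription factors of the neural crest and its glia, and Sox10 is also made in the otic epithelium and in melanocytes. Erbb3 is the receptor through which Schwann cells read neuregulin from axons, and it signals together with Erbb2. Pmp22 and Mbp are structural proteins of compact myelin, Mag is an adhesion protein of the myelin layer facing the axon, and Cnp is an enzyme and membrane protein of uncompacted myelin. Around birth myelination in the mouse cochlea has hardly begun.

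Values are normalized read numbers, which are reads per gene scaled per replicate by the authors with 1 added, so that a gene without reads has the value 1. They are not divided by gene length. Recovered reads on genes numbered 22398915–28150184 per replicate. The hair cell markers separated the sorts, with the summed level of Atoh1, Myo6, Myo7a, Gfi1 and Otof at 10100–10600 in control hair cells and 195–233 in control non-hair cells. In control non-hair cells that sum was mostly Myo6 (mean 201), with means of 11.2 for Myo7a, 4.38 for Otof, 1.38 for Atoh1 and 1.12 for Gfi1. Control hair cell replicate 2 stood apart from replicates 1 and 3 in summed mesenchyme and endothelial markers, but not in the supporting cell list (1210, 1220 and 1410 in replicates 1, 2 and 3) or the melanocyte list (12.9, 12.7 and 15.8). The summed level of 6 mesenchyme genes was 548 there against 269 and 304, and that of 5 endothelial genes was 25.1 against 15.7 and 12.9. Among control non-hair cells the sum of 7 neuron genes was 498 in replicate 1 and 1350 and 1200 in the others.

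Other Schwann cell markers were present in the non-hair cells, while those of oligodendrocytes, the myelin-forming cells of the central nervous system, were near the floor. In control non-hair cells S100b, a calcium-binding protein of glia, had 31.3 ± 8.90 (SD, n = 3). Cdh19, a cadherin of the Schwann cell lineage, had 14.3 ± 2.91 (SD, n = 3). In control hair cells the means were 8.56 for S100b and 3.92 for Cdh19. Fabp7, listed with them, had a higher mean in control hair cells, 37.2 against 22.3 in control non-hair cells. That difference did not pass (limma adjusted p = 0.0554). Summed without the offset, these 3 genes had in control hair cells 71.9% of their level in control non-hair cells. Of 5 oligodendrocyte genes only Olig1 reached 100 reads over the 12 replicates. The summed level of these 5 genes without the offset was 0.951–1.54 in control non-hair cells and 1.32–1.59 in control hair cells. Opalin was listed at 1, without reads, in all 3 control hair cell replicates and all 3 treated non-hair cell replicates.

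Sox10 was found in all replicates of both sorts. Its normalized read numbers were 260, 355 and 388 in control and 268, 199 and 354 in gentamicin-treated non-hair cells. In hair cells they were 113, 135 and 113 in control and 81.3, 43.5 and 85.8 after gentamicin. Every non-hair cell replicate was above every hair cell replicate. Foxd3 had 38.8, 74.9 and 50.5 in control and 26.1, 37.5 and 35.8 in treated non-hair cells. It had 8.60, 17.5 and 9.49 in control hair cells and 3.20, 4.54 and 5.31 in treated hair cells. The highest Foxd3 value of the hair cell sort was that of control replicate 2, and treated and control replicates did not overlap in either population.

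The receptor gene Erbb3 was likewise found in every replicate. It had 83.6, 115 and 147 in control and 98.2, 87.5 and 147 in treated non-hair cells. In hair cells it had 57.6, 60.1 and 62.5 in control and 47.2, 38.1 and 51.8 with gentamicin. Among treated hair cells replicate 2 was lowest for Sox10, Erbb3, Mbp, Cnp and Mag. It was also lowest for Pmp22, though close to replicate 1 (3.30 against 3.39). The same replicate had the lowest summed level of 6 supporting cell markers, 538 against 790 and 1020.

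Among the myelin proteins, Pmp22 separated the sorts most. It had 82.3, 94.2 and 59.3 in control non-hair cells and 68.6, 91.8 and 56.5 in treated ones, against 6.65, 14.6 and 6.48 in control hair cells and 3.39, 3.30 and 5.03 in treated ones. Mbp had 73.3, 92.4 and 84.0 in control and 63.4, 63.9 and 75.7 in treated non-hair cells. Its values in hair cells were 29.6, 36.8 and 29.1 in control and 25.2, 18.4 and 25.8 with gentamicin. Pmp22 and Mbp were again highest, within control hair cells, in replicate 2. The Mbp locus also gives longer transcripts outside myelin, and a value per gene does not separate them.

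Mag was barely detected. It had 26, 22 and 36 recovered reads in control and 25, 43 and 22 in treated non-hair cells, and 4, 5 and 8 in control and 10, 2 and 11 in treated hair cells. The 3 control hair cell libraries held 17 reads of it together and the 3 control non-hair cell libraries 84. Normalized read numbers of Mag ranged over 1.87–2.39 in control non-hair cells and 1.17–1.37 in control hair cells, where the added 1 makes up most of the value and shrinks any fold change.

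Cnp had the opposite distribution. Its normalized read numbers were 165, 163 and 159 in control hair cells and 142, 130 and 135 in treated hair cells. Non-hair cells held 51.8, 51.3 and 65.5 in control and 63.4, 87.2 and 68.7 with gentamicin. All 6 hair cell replicates were above all 6 non-hair cell replicates. By GENCODE M21 on the mm10 assembly 154 bases of the Cnp exons, 4.23%, overlap exons of Dnajc7 on the opposite strand, and 89 bases of the Foxd3 exon, 3.83%, overlap the small RNA gene Gm23366. On the same assembly Sox10 lies at chr15:79154908-79165240 (minus strand), Erbb3 at chr10:128567523-128589652 (minus), Foxd3 at chr4:99656299-99658622 (plus), Pmp22 at chr11:63128982-63159547 (plus), Mag at chr7:30899176-30914873 (minus) and Cnp at chr11:100574904-100591729 (plus). Whether the counting used strand is not given in the sources used here.

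**Figure D1:**
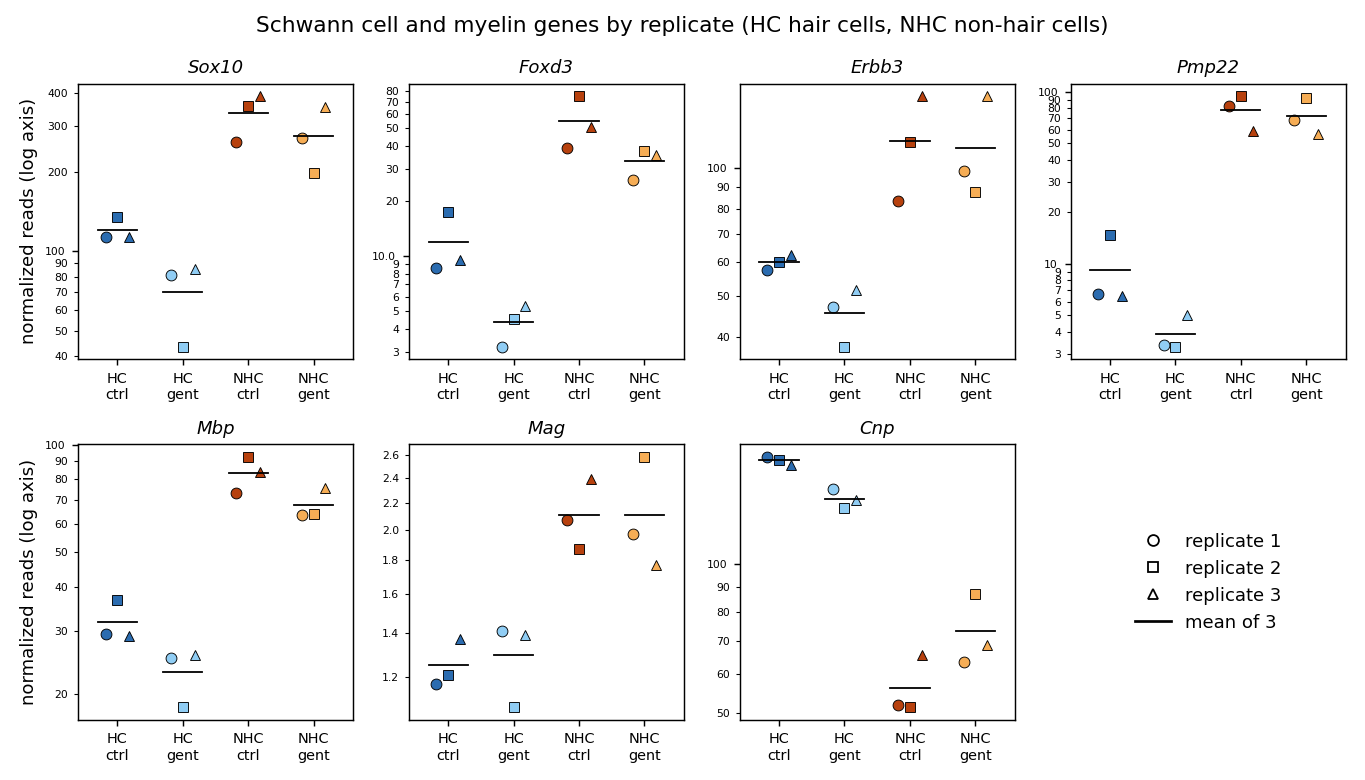
Normalized read numbers (log axis) of the 7 genes in each replicate, with HC for hair cells, NHC for non-hair cells, ctrl for control and gent for gentamicin, symbols for replicate numbers and a line for the mean of 3. Cnp alone has its hair cell replicates (130–165) above its non-hair cell replicates (51.3–87.2), and Mag stays between 1.08 and 2.58.

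Divided by the length of all exons of the gene, normalized reads per kilobase in control non-hair cells put Sox10 first with a mean of 109 (84.9–127). Pmp22 followed with 33.0 (24.8–39.6), Foxd3 with 23.1 (16.3–31.8), Erbb3 with 19.0 (13.7–24.3), Cnp with 15.2 (13.8–17.7), Mbp with 9.71 (8.54–10.8) and Mag with 0.273 (0.214–0.341). The length used for Mbp, 8469 bases, takes in the exons of all its transcripts, the longer ones included. Its place in this order depends on that choice. The ranges of neighbours overlapped from Pmp22 through Cnp, so that these neighbours are not ordered beyond the spread of the replicates, while all replicates of Pmp22 were above those of Erbb3 and Cnp. In control hair cells Cnp led per kilobase with 44.3 (43.3–45.0), and its range overlapped that of Sox10 at 39.2 (36.7–44.1). Erbb3 had 9.82 (9.41–10.2) there, while Foxd3, Mbp and Pmp22 lay at 4.68, 3.64 and 3.51 with overlapping ranges.

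The first comparison, between the control populations, asks on which side of the sort the 7 genes lie. Of the 7 genes, 6 were higher in control non-hair cells and 1, Cnp, was lower, each at a limma adjusted p under 0.05. Over all genes tested, 42.2% were higher and 31.9% lower by the same rule. The log2 difference was 3.17 (standard error 0.32, adjusted p = 2.74e-06) for Pmp22, a 9.0-fold difference, and 2.23 (standard error 0.31, adjusted p = 4.38e-05) for Foxd3. It was 1.46 for Sox10 (adjusted p = 0.000395), 1.39 for Mbp (adjusted p = 4.61e-06), 0.90 for Erbb3 (adjusted p = 0.00268) and 0.75 for Mag (adjusted p = 0.00128). With an offset of 0.1 in place of 1 the log2 difference of Mag was 1.80. For Cnp it was -1.54 (standard error 0.12, adjusted p = 3.14e-07), which is 2.91-fold higher in hair cells. The median over the 7 genes was 1.39, against 0.12 over all genes tested. No call was lost in an alternative fit that tested the gene, and Mag was not tested with a minimum of 1000 reads. None of the 7 genes had overlapping replicates between the populations, without or with gentamicin. Replicates did not overlap for 44.6% of all genes on the higher side and for 34.5% on the lower side without drug, and for 44.0% and 35.1% with drug.

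How much of each gene was found in the hair cell sort differed among the 7. With the added 1 taken off, the mean level in control hair cells was 10.6% of that in control non-hair cells for Pmp22, 20.2% for Foxd3 and 22.7% for Mag. It was 35.9% for Sox10, 37.5% for Mbp, 51.7% for Erbb3 and 292% for Cnp. The same share was 5.82% for the summed mesenchyme list, 6.0% for the endothelial list and 6.96% for the macrophage list. It was 39.5% for 6 melanocyte genes, of which Mlana was at 0 in control hair cells, 117% for 7 neuron genes and 168% for the 6 supporting cell genes. The neuron sum was mostly Nefm and Nefl, whose log2 differences between the control populations were -0.56 and -0.54. Among the same neuron genes Tubb3 had 2.42, Prph 2.84 and Rbfox3 -2.88. The melanocyte genes differed as well. Of the 4 tested, Dct had 3.37, Mitf 1.46, Pmel 0.44 and Tyr 0.12, of which that of Tyr did not pass. All 7 genes lay above the shares of mesenchyme, endothelium and macrophages as sums, in which the most abundant genes weigh most. Single genes of these lists differed. The log2 difference between the control populations was 2.08 for Col1a1, 2.61 for Lum and 4.77 for Col3a1. It was 3.02 for Pecam1 and 4.955 for Emcn, and 2.03 for Cd68 and 3.075 for C1qa. Pmp22, at 3.17, and Foxd3, at 2.23, lay among these single genes. The macrophage genes Fcgr3 and Aif1 had less, 1.44 and 1.15. Both were near the floor in control hair cells (means 1.04 and 1.07), where the added 1 shrinks the difference. Sox10, at 1.46, lay above both of these, and Mbp, at 1.39, above Aif1. What cells in the sort carried the reads of the 7 genes was not tested.

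**Figure D2:**
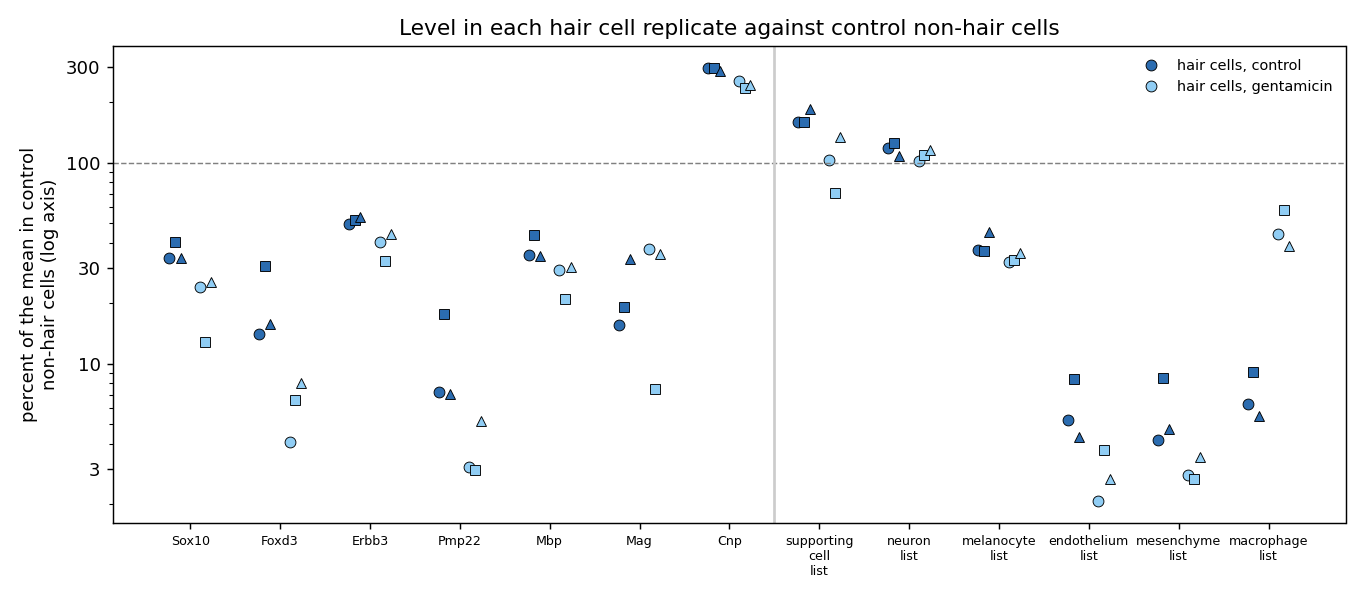
Level in each hair cell replicate as percent of the mean in control non-hair cells (log axis, added 1 taken off, circles, squares and triangles for replicates 1, 2 and 3), for the 7 genes on the left and for summed lists of other cell types on the right. Cnp lies at 234–297%, Pmp22 at 2.97–17.6%, and within control hair cells replicate 2 is highest for Sox10, Foxd3, Pmp22, Mbp and the endothelial, mesenchyme and macrophage lists.

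Upstream sequence was looked up for the 7 genes because Sox10 is itself among them and Cnp was distributed differently from the rest. The RefSeq table on GRCm38.p6 holds a start site for 4 of the 7, of which the most upstream one was used, and the 250 bases before it are given 5′ to 3′ on the strand of the gene. Capitals mark the letters ACAAAG or ACAATG on either strand, a core that Sox proteins can bind. The regions are chr11:100574689-100574938 (plus strand) for Cnp, chr7:30914923-30915172 (minus strand) for Mag, chr11:63128732-63128981 (plus strand) for Pmp22 and chr4:99656049-99656298 (plus strand) for Foxd3.
Cnp: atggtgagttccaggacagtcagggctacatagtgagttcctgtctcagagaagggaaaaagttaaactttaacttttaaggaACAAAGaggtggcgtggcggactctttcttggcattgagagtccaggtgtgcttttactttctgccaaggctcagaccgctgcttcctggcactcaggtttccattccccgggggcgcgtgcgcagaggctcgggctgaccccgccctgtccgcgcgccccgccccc
Mag: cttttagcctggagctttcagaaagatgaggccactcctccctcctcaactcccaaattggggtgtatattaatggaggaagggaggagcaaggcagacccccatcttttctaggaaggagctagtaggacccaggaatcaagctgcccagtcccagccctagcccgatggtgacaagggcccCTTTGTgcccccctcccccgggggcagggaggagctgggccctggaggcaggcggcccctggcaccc
Pmp22: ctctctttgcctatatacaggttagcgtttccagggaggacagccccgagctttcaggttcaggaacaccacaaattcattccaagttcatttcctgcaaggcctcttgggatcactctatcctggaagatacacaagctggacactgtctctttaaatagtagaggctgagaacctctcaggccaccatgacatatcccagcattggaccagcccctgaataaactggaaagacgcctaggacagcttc
Foxd3: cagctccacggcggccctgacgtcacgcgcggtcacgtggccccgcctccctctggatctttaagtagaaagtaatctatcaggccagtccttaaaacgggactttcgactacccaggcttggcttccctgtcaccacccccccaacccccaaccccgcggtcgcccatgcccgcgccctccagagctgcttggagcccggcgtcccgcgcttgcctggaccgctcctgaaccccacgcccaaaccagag
The letters were present once in Cnp and once in Mag, with no overlapping match, and absent from these windows of Pmp22 and Foxd3. Of 27025 genes in the table, 25.4% hold them in a window of the same length, and of 16 further genes of the myelin and glial lists with an entry 1, Gjb1, holds them. The CG dinucleotide occurs 21 times in the Foxd3 window, 13 times in that of Cnp and 3 times each in those of Mag and Pmp22, against a median of 6 over all windows.

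The second question was whether 3 h of gentamicin changed these genes in non-hair cells, where most reads of the 7 genes except Cnp were. The study's rule asks for p under 0.01 before adjustment and more than 1.2-fold change. By this rule Cnp rose and 0 of the 7 genes fell, where 3.18% of all genes rose and 2.26% fell. At an unadjusted p under 0.05, 1 of the 7 rose (Cnp) and 1 fell (Foxd3). The share of all genes at this unadjusted cutoff was not counted, so counts at it, here and elsewhere, stand without one. At an adjusted p under 0.05 none of the 7 passed, and 0.342% of all genes did. With each replicate scaled by its total reads, 69.2% of all calls were rises, against 58.5% as deposited. Cnp went from 56.2 ± 8.05 to 73.1 ± 12.5 (SD, n = 3 each), a log2 fold change of 0.38 (standard error 0.12, limma adjusted p = 0.158). The groups overlapped, with a lowest treated value of 63.4 below the highest control value of 65.5. The call was lost without control replicate 1 (log2 fold change 0.32), control replicate 2 (0.31), treated replicate 2 (0.24) or treated replicate 3 (0.41), with the pair of non-hair cell groups fitted alone, and with replicate weights (0.27).

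The other 6 genes did not pass the study's rule in non-hair cells. Foxd3 was the only one whose groups did not overlap, with treated replicates at 26.1–37.5 and controls at 38.8–74.9. Its log2 fold change was -0.69 (95% interval -1.37 to -0.01, limma adjusted p = 0.286), and with replicate weights it passed, at -1.08. Over all genes tested, treated replicates lay below all controls for 7.68% and above all for 10.1%. Log2 fold changes were -0.31 for Sox10 (95% interval -0.89 to 0.28), -0.30 for Mbp (-0.62 to 0.03) and -0.12 for Pmp22 (-0.82 to 0.57). They were -0.05 for Erbb3 (-0.53 to 0.42) and -0.01 for Mag (-0.37 to 0.34). A missed threshold does not show that these genes did not respond. The signs of Pmp22, Erbb3 and Mag turned with 1 replicate left out. Markers of other cells differed among the same replicates. The summed level of 7 neuron genes, of which Rbfox3 fell by the study's rule, was 498, 1350 and 1200 in control and 484, 228 and 914 in treated non-hair cells, and the supporting cell list had 589, 661 and 1040 in control and 648, 362 and 825 in treated ones. Their part in the values of the 7 genes was not tested.

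The third comparison was that of treated and control hair cells. There 4 of the 7 genes fell by the study's rule in the limma fit and 0 rose, where 14.8% of all genes fell and 12.7% rose. At an unadjusted p under 0.05 the counts were the same, 4 and 0. With total-read scaling 63.6% of all calls were rises, against 46.1% as deposited. Foxd3 fell most, from 11.9 ± 4.91 to 4.35 ± 1.07 (SD, n = 3 each), a log2 fold change of -1.40 (standard error 0.31, limma adjusted p = 0.00577). Pmp22 fell from 9.26 ± 4.66 to 3.91 ± 0.972 (SD, n = 3 each), by 1.16 on the log2 scale (standard error 0.32, adjusted p = 0.0166). Sox10 fell from 121 ± 12.9 to 70.2 ± 23.2 (log2 fold change -0.84, adjusted p = 0.0326) and Mbp from 31.8 ± 4.34 to 23.1 ± 4.14 (log2 fold change -0.47, adjusted p = 0.0310), with SDs over 3 replicates each. Cnp, at -0.26 (95% interval -0.52 to 0.00, adjusted p = 0.119), and Erbb3, at -0.41 (-0.88 to 0.07, adjusted p = 0.172), did not pass, and neither did Mag at 0.04 (-0.31 to 0.40). In all genes but Mag the treated replicates lay below all controls, as they did for 33.1% of all genes tested, and 21.7% had all treated replicates above all controls. The median log2 fold change of the 7 genes was -0.47, against -0.09 over all genes.

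These falls rested on single replicates to different degrees. Foxd3 passed with any 1 hair cell replicate left out. Without control replicate 2, the one with the higher mesenchyme and endothelial sums, it was the only member that fell, with a log2 fold change of -1.09, while Pmp22 was at -0.78, Sox10 at -0.75 and Mbp at -0.36. Without treated replicate 2, too, Foxd3 alone passed, with Pmp22 at -1.05, Sox10 at -0.53 and Mbp at -0.31. Sox10 and Mbp were also lost without control replicate 1 or 3, and Pmp22 without treated replicate 1. Under median-of-ratios scaling and under total-read scaling Foxd3 and Pmp22 passed and Sox10 and Mbp did not. With the hair cell groups fitted alone Erbb3 passed too, and Mbp did not.

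Summed markers of several other cell types were lower in the same treated replicates. The mesenchyme list summed to 269–548 in control and 172–221 in treated hair cells, and 4 of its 6 genes fell by the study's rule, by which 14.8% of all genes fell. The endothelial list went from 12.9–25.1 to 6.18–11.0, where 1 of 5 genes fell, a share near that of all genes, and the supporting cell list from 1210–1410 to 538–1020, where Hes5 and Lfng fell, 2 of 6. Of 7 neuron genes 0 passed in limma. At an unadjusted p under 0.05, 2 were lower, Prph and Neurod1, the latter near the floor (means 1.82 and 1.12). The sums were 1100–1280 and 1030–1180. These sums were mostly Nefm (means 699 and 709) and Nefl (338 and 260). Tubb3 went from 23.0 ± 7.39 to 12.5 ± 1.55 and Prph from 4.75 ± 2.06 to 2.13 ± 0.583 (SD, n = 3 each). The unadjusted limma p of Tubb3 was 0.0876. Of 4 tested melanocyte genes Tyr fell, with list sums of 12.7–15.8 and 11.2–12.5. The macrophage list went the other way, from 1.66–2.74 to 11.6–17.5, with Cd68 as the gene that rose, 1 of 5, where 12.7% of all genes rose. The part of these shifts in the falls of Foxd3, Pmp22, Sox10 and Mbp was not tested. Relative to control non-hair cells, treated hair cells held 3.75% of Pmp22 and 6.24% of Foxd3, beside 2.97% of the summed mesenchyme list. In that sum Col1a2 and Col3a1 weigh most, and Col1a1 had a mean of 27.6 in treated hair cells and 143 in control non-hair cells. The shares were 20.8% for Sox10, 26.9% for Mbp, 26.6% for Mag and 39.1% for Erbb3.

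**Figure D3:**
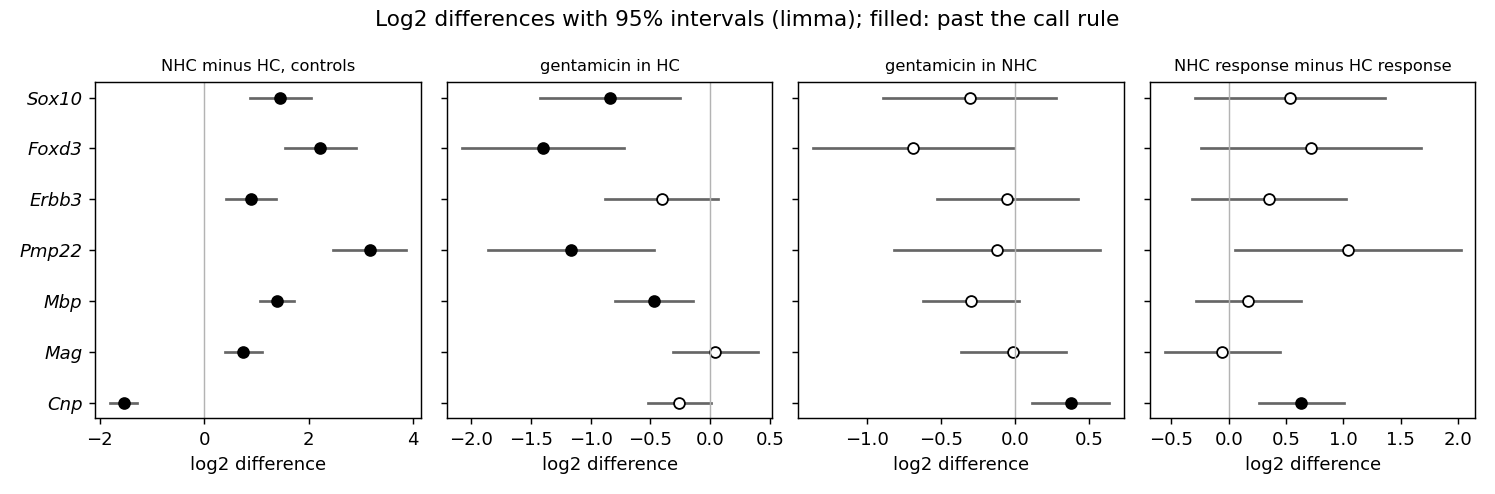
Log2 differences of the 7 genes with 95% intervals from limma, in 4 comparisons (NHC non-hair cells, HC hair cells), with filled points for genes past the rule of that comparison. All 7 points are filled between the populations, 4 in treated hair cells, and Cnp alone in treated non-hair cells and in the difference of responses.

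A call in 1 population and not in the other does not show that the responses differ, so they were also compared with each other by test. Only Cnp passed, with a response in non-hair cells higher by 0.63 on the log2 scale than that in hair cells (standard error 0.17, limma adjusted p = 0.0315). At an adjusted p under 0.05, 6.57% of all genes differed in this direction and 6.85% in the other. With total-read scaling 32.3% of the calls were in this direction, against 48.9% as deposited, and Cnp did not pass there, at 0.56. It passed in 6 of the 12 fits that left out 1 replicate, in which the difference lay between 0.50 and 0.75. The fits in which it was lost were those without any 1 of the 3 control hair cell replicates, without treated hair cell replicate 2, and without control non-hair cell replicate 1 or 2. Pmp22 had the widest gap, 1.04 (95% interval 0.06 to 2.02, adjusted p = 0.145), and Foxd3 had 0.72 (adjusted p = 0.297). For Sox10 the difference was 0.53, for Erbb3 0.35, for Mbp 0.17 and for Mag -0.06, none past the threshold. Control replicates are shared between comparisons, those of hair cells by this one, by that of treated hair cells and by that of the populations.

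The wider lists of myelin and of the Schwann cell lineage set the 7 genes among their partners. Of 10 other structural genes of peripheral myelin, all 10 were higher in control non-hair cells, with a median log2 difference of 1.34, where 42.2% of all genes were higher and the median of all was 0.12. Pllp had 2.63, Drp2, which links the Schwann cell membrane to its surroundings together with periaxin, 2.39, and Prx, which encodes periaxin, 1.69. The lowest was the gap junction gene Gjb1 with 0.55 (adjusted p = 0.00387). It was near the floor, with 10 recovered reads over the control hair cell libraries and 51 over the control non-hair cell libraries. The added 1 shrinks its difference, so its place as the lowest depends on the offset. Of 10 further glial markers 7 were higher and 1, the cell adhesion gene Ncam1, was lower, against 42.2% and 31.9% of all genes. Mia had 2.34, Cdh19 1.88 and S100b 1.84, while Fabp7 had -0.73 (adjusted p = 0.0554).

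Among 9 tested transcription factors of the lineage, 6 were higher in control non-hair cells and 2 lower, against 42.2% and 31.9% of all genes. Egr2, the activator of myelin genes in Schwann cells, had 2.23, its partner Nab2 3.87 and Pou3f1 1.96, whereas Nab1 had -0.95 and Id4 -1.46. Of 13 signalling genes 6 were higher and 4 lower, shares near those of all genes. Erbb2, the partner of Erbb3, had 2.31 (adjusted p = 3.37e-07), a larger difference than the 0.90 of Erbb3, and the neurotrophin receptor gene Ngfr had 2.40. Lgi4, a secreted factor of Schwann cells, had 1.89, and the protease gene Bace1, which acts on neuregulin, had -1.75. Neuregulin itself, Nrg1, had 6.11 ± 1.06 in control hair cells and 9.35 ± 2.69 in control non-hair cells (SD, n = 3 each) and did not pass.

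Of 5 enzymes of myelin lipid and sterol synthesis 3 were lower in control non-hair cells, as Cnp was, and 0 were higher in the limma fit, also at an unadjusted p under 0.05, where 31.9% of all genes were lower and 42.2% higher. Ugt8a, the enzyme that makes galactosylceramide, had 105 ± 11.0 in control hair cells and 9.18 ± 2.69 in control non-hair cells (SD, n = 3 each), a log2 difference of -3.55 (adjusted p = 5.32e-08). Gal3st1, which turns that lipid into sulfatide, had -1.23 (adjusted p = 1.07e-05), and the sterol enzyme Sqle had -1.02. Fa2h, which hydroxylates fatty acids of these lipids, had 1.65–2.75 in control hair cells and 2.28–2.51 in control non-hair cells and did not pass.

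**Figure D4:**
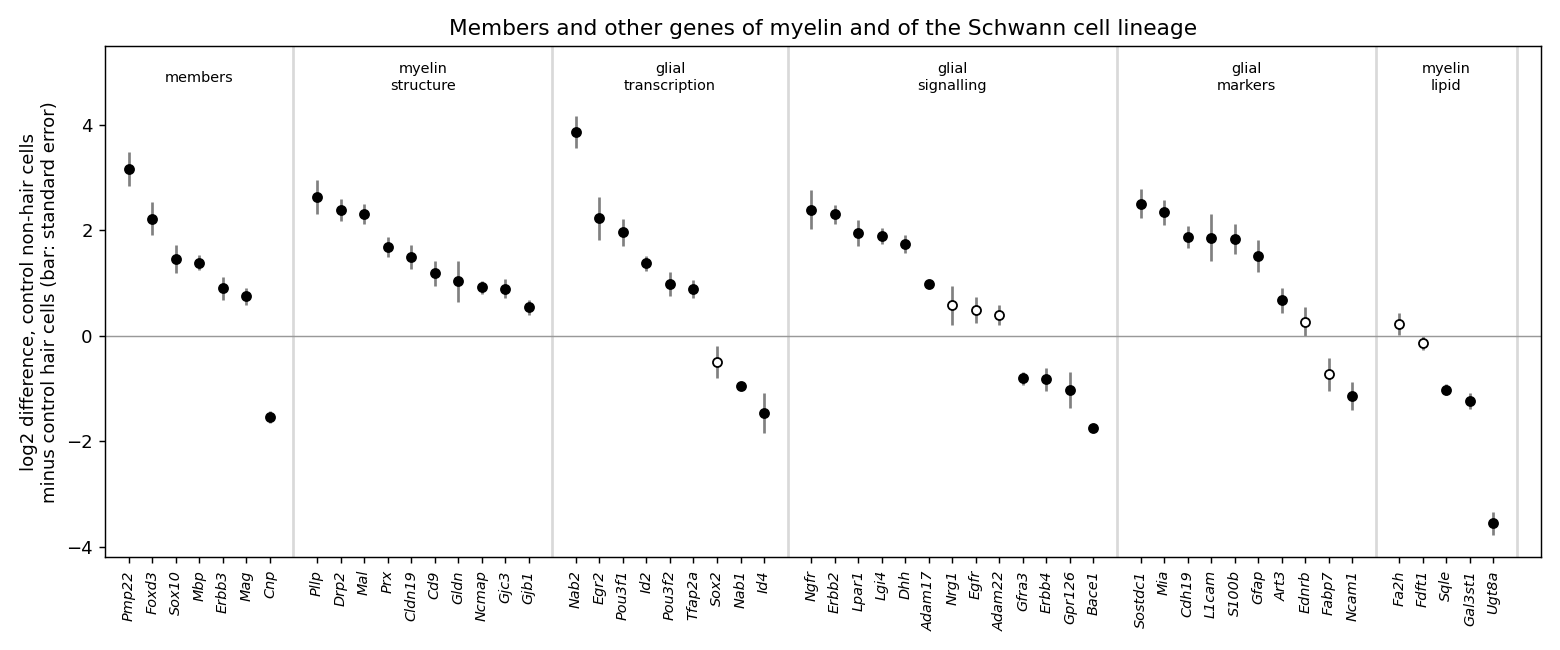
Log2 difference between control non-hair cells and control hair cells (bars are standard errors) for the 7 genes, labelled members, and for 5 lists of myelin and Schwann cell genes, with filled points at an adjusted p under 0.05. All 10 points of the myelin structure list are above 0, and those below 0 include Cnp (-1.54), Bace1 (-1.75) and Ugt8a (-3.55).

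The shares of all genes called were 14.8% lower and 12.7% higher in hair cells with gentamicin, 2.26% and 3.18% in non-hair cells, and 6.57% with a higher response in non-hair cells. With gentamicin, 0 of the 10 structural genes passed the study's rule in non-hair cells (2 were higher at an unadjusted p under 0.05) and 1, Drp2, fell in hair cells, from 3.92 ± 0.973 to 1.80 ± 0.145 (SD, n = 3 each), a log2 fold change of -1.10 (adjusted p = 0.00267). In the test of the response difference Drp2 (1.13, adjusted p = 0.0304) and the glial connexin gene Gjc3 (0.97, adjusted p = 0.0277) passed, 2 of 10. In the same test Erbb4 (1.06, adjusted p = 0.0422) passed among the 13 signalling genes, and Sqle (0.91, adjusted p = 0.00467) and Fdft1 (0.72, adjusted p = 0.0245) among the 5 lipid enzymes, all with the higher response in non-hair cells. Of the signalling genes 4 of 13 fell in hair cells. In non-hair cells 0 passed, with 1 higher and 2 lower at an unadjusted p under 0.05. The 4 genes were Lgi4 (-0.81), Erbb4 (-0.83), Erbb2 (-0.63) and Bace1 (-0.28). Of 10 further glial markers 0 passed in either population, 3 were lower in hair cells and 1 in non-hair cells at an unadjusted p under 0.05, and their median log2 fold change in hair cells was -0.49. Among the transcription factors Nab1 alone passed, with a rise of 0.27 in hair cells. Of the lipid enzymes 2 of 5 rose in non-hair cells, Sqle (0.74, adjusted p = 0.0301) and Fdft1 (0.51, adjusted p = 0.0956). In hair cells 0 of 5 passed in limma, also at an unadjusted p under 0.05. Sqle and Fdft1 act in sterol synthesis in all cells.

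The genes most like the 7 were sought by the correlation, over the 12 replicates, of log2 normalized read numbers with the mean of the standardised values of the 7 genes. They were Clcn5 (r = 0.995), Ephb2 (0.993), Capn5 (0.992), Sparcl1 (0.991) and Dmd (0.990). The replicates fall into the 2 populations, and this r describes mostly the gap between them. Of the 7 genes, Cnp had r of -0.82 with this mean, and the others had 0.877 for Mag to 0.985 for Mbp. Each of the 7 is itself part of the mean, which pushes its r up, here and over fewer replicates. Over the 6 non-hair cell replicates alone, r with the mean ranged from -0.005 for Cnp and 0.05 for Pmp22 to 0.783 for Mbp and 0.861 for Foxd3. Slc17a5 (0.993), D330050G23Rik (0.991), Zfp281 (0.987), Gm19757 (0.983) and Cd109 (0.979) were closest there. Sox10 and Erbb3 had r = 0.87 among these 6 replicates, and both were highest in replicate 3 of control and of treated cells, where the supporting cell list was highest too. Pmp22 had its lowest value of each group in that replicate, with r = -0.74 to Erbb3. Over the 6 hair cell replicates, control and treated together, r was 0.98 for Mbp and Sox10, 0.97 for Sox10 and Erbb3 and 0.96 for Pmp22 and Foxd3.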

How the data were processed

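Polyadenylated RNA of the sorted cells was sequenced as 50 bp single-end reads. The authors trimmed the reads, aligned them to mm10 with TopHat 2 and deposited 1 normalized read score per gene and replicate, which the methods call RPKM. No division by gene length is visible in these scores, since after removal of the added 1 most low values of a replicate shared 1 step. Of values under 30 steps, 78.9–80.4% were whole multiples of it within 0.05 steps. The others were not, and for these genes recovered reads are not whole numbers. Division by the step gave recovered reads, 22398915–28150184 per replicate. Counting error limits genes with few reads such as Mag.

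On log2 scores, limma 3.58.1 (R 4.3.3) tested the 16077 genes that had 100 or more recovered reads in all 12 replicates together, with 4 groups in 1 model, a mean-variance trend, two-sided tests and Benjamini-Hochberg adjustment over these genes. The calculation was tested on simulated data. Gentamicin calls used p under 0.01 with a fold change above 1.2, and population and response differences an adjusted p under 0.05. An exact permutation test of 3 against 3 cannot go below p = 0.10 and was not used. The methods describe the replicates as biological. Same-numbered control replicates of the populations deviated together (correlations 0.216, 0.316 and 0.200 across genes). By this and the column names the numbers may pair the control groups. For treated hair and non-hair cells the same correlations were 0.377, -0.0386 and -0.0179, which does not show such a pairing. The main fit treated all groups as unpaired.

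Alternatives were other scalings, an offset of 0.1, minima of 1000 reads and 1 read, a replicate block, the compared groups alone, replicate weights (gene by gene, chosen after the default estimate had not converged), another call rule, and each replicate left out. Exon lengths came from GENCODE M21 and upstream sequence from RefSeq on GRCm38.p6. The 7 genes and all gene lists, markers of other cell types included, were chosen with earlier results of these data known. List genes were named after their values were seen, and the 5 genes most correlated with the 7 by rule. Some genes of the lists are not reported here and were left out of the counts.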

Additional observations from a re-analysis of the deposited data

Results flagged for a closer look

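Cnp was the only one of the 7 genes whose response to gentamicin differed between the populations by the test of the difference itself. The response of non-hair cells was higher than that of hair cells by 0.63 on the log2 scale (95% interval 0.26 to 1.00, limma adjusted p = 0.0315). The difference was lost in 6 of the 12 fits that left out 1 replicate and under total-read scaling. Cnp rose by the study's rule in non-hair cells (0.38, limma adjusted p = 0.158), where control and treated replicates overlapped and the call was lost in 4 of 6 such fits, and had a log2 fold change of -0.26 in hair cells that did not pass the rule there.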

How the results depend on the processing

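Between the control populations no call was lost in the alternatives that tested the gene, the replicate block included, but Mag was not tested with a minimum of 1000 reads (5 members higher and 1 lower), and its log2 difference was 1.80 with an offset of 0.1. Median-of-ratios scaling shifted the median of all genes by -0.12. In treated hair cells 2 members fell under median-of-ratios scaling and 2 under total-read scaling in place of 4. In addition Sox10 was lost with a minimum of 1 read, and Mbp with the replicate block. In treated non-hair cells the number of members that rose was 0 in place of 1 with the replicate block, with the groups alone, with replicate weights and at an adjusted p under 0.05, and the number that fell was 1 (Foxd3) with the replicate block and with replicate weights. The count over all genes there was 383 with the groups alone, 1907 with replicate weights and 55 at an adjusted p under 0.05, against 875. For the response difference, 0 members passed under total-read scaling in place of 1, and replicate weights gave 3857 genes over all against 2158. Causes were not tested. The correlations of same-numbered samples did not show that the replicate numbers pair control with treated samples. They were 0.0369, 0.0523 and 0.0369 in hair cells and 0.208, -0.232 and 0.683 in non-hair cells, and not every sample correlated best with its own number. With the replicate block 4618 genes were called in hair cells, 878 in non-hair cells and 2306 for the response difference, against 4418, 875 and 2158.

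With 1 replicate left out at a time, members that fell in hair cells numbered 1 to 4, members that rose in non-hair cells 0 to 1, and members past the threshold of the response difference 0 to 1. Genes called over all ranged from 411 (without control replicate 2) to 1570 (without treated replicate 3) in non-hair cells and from 1163 (without control hair cell replicate 2) to 2378 (without treated hair cell replicate 3) for the response difference. Log2 values that changed sign were those of Mag in hair cells (-0.025 to 0.166), of the response difference of Mag (-0.213 to 0.058), and in non-hair cells of Pmp22 (-0.313 to 0.040), Erbb3 (-0.275 to 0.144) and Mag (-0.171 to 0.101).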
